A study of Arabidopsis thaliana with 74 samples.

Results

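At 4 places in the Arabidopsis genome, small RNAs piled up in 1 parent of a cross and were near 0 in the other, outside the Ler-derived segment that the mother carries around MS1. These 4 peaks lie by or in AT2G46040, AT3G57480, AT3G44950 and AT1G29100. They were selected on the counts themselves: AT3G57480 and AT3G44950 for the difference between epiHybrids and epiRILs, AT2G46040 and AT1G29100 for the difference between epiRILs and msCol. Levels under those contrasts are therefore given as a description with no test. The members are 4 of the 589782 non-overlapping windows of 200 bp that hold a count in CHH context. Every 50-bp step within 3 kb of them was examined, 484 of 2379342 steps.

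The libraries came from aerial rosettes harvested 27 d after sowing, with the rosettes of 3 cultivations pooled for each line. The 36 epiHybrids are offspring of the male-sterile line msCol as mother and 36 epiRILs as fathers, and an epiHybrid with its own father is called a family and carries the number of the line. An epiRIL is an inbred line of Col background that descends from a ddm1-2 mutant founder and keeps a mosaic of its hypomethylated segments. The mother is Col with the ms1 allele of Ler origin, and its 2 libraries, msCol12 and msCol16, carry the names of 2 sibling maternal plants, whose numbers do not refer to families 12 and 16. Each line gave a single library, so the spread between libraries holds both the lines and the technical error. The libraries held between 20995764 and 27084303 counts, with a median of 25585062 in the epiHybrids, a range of 24515153 to 26777462 in the epiRILs, and 23979424 and 25212867 in the msCol libraries.

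In plants, small RNAs of the 24-nt class guide the RNA-directed DNA methylation machinery to matching DNA, where cytosines in every sequence context can become methylated. CHH methylation, in which H is any base but G, depends on being renewed after each replication and is a usual sign of this pathway. Most such small RNAs come from transposons and repeats, and fewer from genes and their flanks. DDM1 is a chromatin remodeller that keeps DNA methylated in heterochromatin. When 2 parents differ at a small RNA locus, the level in their offspring can equal the mean of both, called the mid-parent value or MPV, or lie above or below it.

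No sequence match was found between any pair of the peaks. In TAIR10 coordinates, the window by AT2G46040 is chr2:18938601-18938800, between AT2G46040 and AT2G46050, and the window by AT3G44950 is chr3:16420801-16421000. At AT3G57480 and AT1G29100 the window reaches into a 3′ untranslated region, and 30 bases are shown of each. In AT1G29100, at chr1:10169836-10169865, the capitals mark the 2 bases between which neighbouring steps part while still counting nearly the same reads.
AT1G29100 site: tgtgacaactcaacGCtcaaatcaatattg
AT3G57480 has partial inverted copies about 10 kb away. The longest match to the window lies in the long noncoding RNA gene AT3G08935, with 8 mismatches in 66 aligned positions. Its closest stretch of 30 bases is shown beside the copy, with the differing base in capitals. These stretches lie at chr3:21277369-21277398 on the plus strand and chr3:21267573-21267602 on the minus strand.
AT3G57480: cattcctcccaaaaatCgtcctaaaacctt
AT3G08935: cattcctcccaaaaatTgtcctaaaacctt

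Before the loci are described, the labels were checked around MS1 on chromosome 5. In the 2.7 Mb centred on that gene, 333 windows carried counts in the epiRILs and almost none in msCol, and 9 windows carried almost none in the epiRILs and many in msCol. At the 333 windows the epiHybrids had between 27.7% and 118% of the median epiRIL level, with a median of 49.2%, and the epiRILs between 61.2% and 119%, with a median of 101%. Families 12 and 568 had the opposite order to their labels. The library labelled epiHybrid 12 had 100% against 65.4% in the library labelled epiRIL 12, and the library labelled epiHybrid 568 had 118% against 61.2%. A further 6 epiHybrids lay above 60%, namely 219, 266, 275, 424, 467 and 503, with 503 highest at 81.8%. All libraries were kept under their labels, and several values that rest on families 12 and 568 are also given without them. Means, medians, lowest and highest counts include these families unless stated. Over 8731 windows, the epiRIL most like an epiHybrid was its labelled father in 34 of 36 families.

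All counts below are normalised by TMM, which scales each library to a common effective size, and are read counts per 200-bp window unless stated. In the order of the medians in the epiHybrids, AT2G46040 had 5499, AT3G44950 594, AT3G57480 30.7 and AT1G29100 22.8. In the epiRILs the order was AT2G46040 with 5783, AT3G57480 with 3547, AT3G44950 with 1.57 and AT1G29100 with 0. In msCol the means were 1075 at AT3G44950, 491 at AT1G29100, 2.87 at AT3G57480 and 0 at AT2G46040. The epiRIL and msCol libraries did not overlap at any of the 4 loci, but differences between the groups selected them and msCol has 2 libraries. The share of all windows without such overlap is not given here, so this is a description only. Over all windows tested, 1.92% differed between epiRILs and msCol and 7.71% between epiHybrids and epiRILs at an adjusted p of 0.05 in edgeR. As all windows have the same width, these levels can be set beside each other, but the reads cover different stretches of them.

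**Figure D1:**
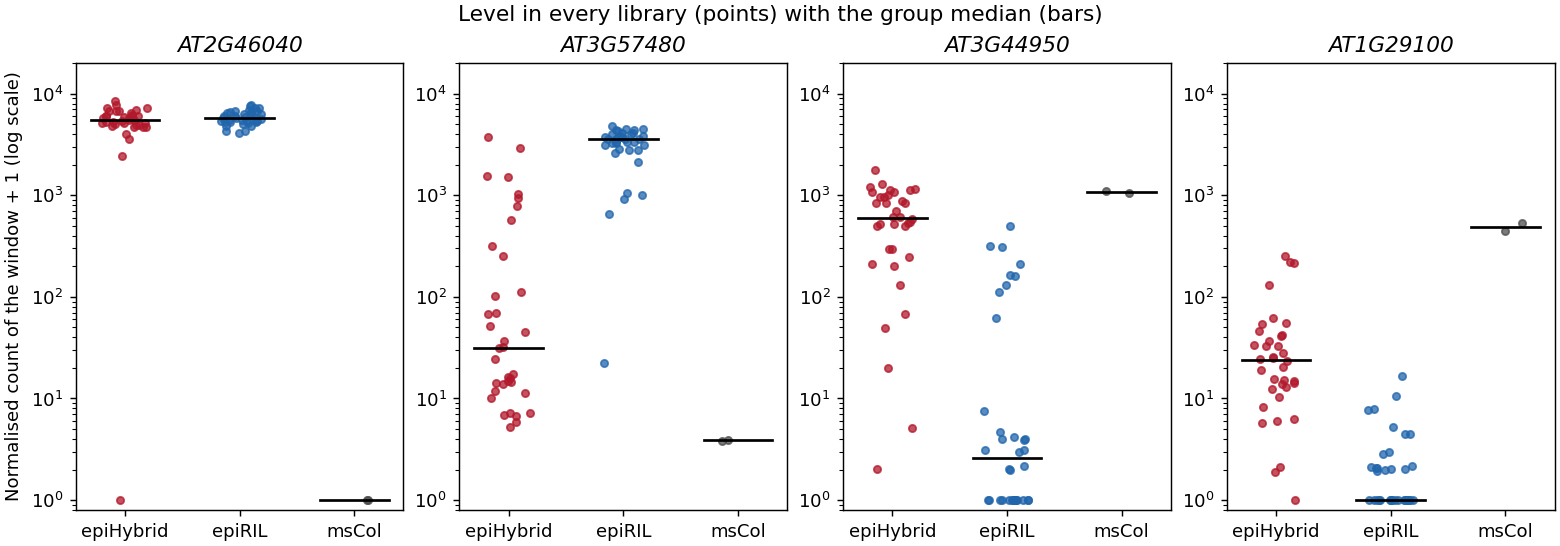
Normalised count of the window plus 1, on a log axis, in every library of the 3 groups at the 4 loci, with the group median as a bar. At AT2G46040 the epiHybrids lie with the epiRILs apart from 1 library at 0, at AT3G57480 most lie near msCol, at AT3G44950 they spread between 1.02 and 1785, and at AT1G29100 most lie between both parents.

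AT2G46040 encodes a protein with an ARID DNA-binding domain, also named ARID1. The window lies 154 bp from the gene, on the side of its 5′ end, and 462 bp from AT2G46050, a pentatricopeptide repeat protein gene. Here the epiHybrids had nearly the level of their fathers. The epiHybrids had a lowest count of 0, a median of 5499 and a highest of 8554, the epiRILs 4096, 5783 and 7697, and both msCol libraries 0. The msCol zeros allow up to 3.46 and 5.40 counts at 95% (exact Poisson, counting error only), and the epiRIL median was at least 1318-fold higher than a floor of 3 counts in the shallower msCol library. The only epiHybrid without the signal was 211, at 0 against 5330 in its father, and its level at the MS1 windows was not among the high ones. The next lowest were epiHybrid 102 with 2429, against 5380 in epiRIL 102, and epiHybrid 266 with 3553, against 6787 in epiRIL 266.

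Among the 36 families the position of the epiHybrid on a scale where 0 is the msCol mean and 1 its own epiRIL had a median of 0.94 at AT2G46040, with quartiles of 0.81 and 1.15. In 13 families the epiHybrid exceeded its father, and in 23 it was below. The epiHybrids averaged 5499 ± 1502 (SD, n = 36) against a mid-parent value of 2923, a difference of 2576 ± 252 (SE) and a ratio of means of 1.88. This SE leaves out the error of the msCol mean, which all families share. The count was above the mid-parent value in 34 of 36 families, all but 102 and 211. No p is given for this difference, because the mid-parent value is built from the epiRIL and msCol counts that selected the locus. Over all windows tested, 47.1% differed from the mid-parent value in a limma fit on the 36 family differences, which leaves out the error of the msCol mean. In a fit on all 74 libraries that includes this error 2.15% did. That fit also does not pair father and offspring, so the 2 shares differ by more than the msCol error.

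The fathers differed little, with an SD of 903 on a mean of 5847, and father and offspring levels at AT2G46040 had a Pearson r of 0.0976 and a Spearman rho of 0.127 over the 36 families on the log2 scale. Over all 174609 windows in which it could be computed, the median of this r was 0.247. The windows whose epiRIL levels were most like those of the peak were in AT1G79040, the photosystem II subunit gene PSBR (r = 0.849 and 0.811), and in AT5G09660, the peroxisomal malate dehydrogenase gene PMDH2 (r = 0.791, n = 36 epiRILs each).

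The peak spanned chr2:18938551-18938950, 400 bp or 5 steps, with the same width in all 35 epiHybrids and all 36 epiRILs that could be measured. A step is 200 bp wide, so the reads themselves occupy less. The step that starts 100 bp before the window had a mean of 0.219 in the epiHybrids and 0.358 in the epiRILs, and the next step, 50 bp on, had 5499 and 5847. The steps up to 100 bp into the window counted nearly the same reads, so almost all of them overlapped the same 50 bp. That stretch includes most of a run of 45 bases, chr2:18938717-18938761, that is also found in organelle DNA. These bases match at 100% the chloroplast at 105486 to 105530 and, in the inverted repeat, at 133119 to 133163, both in 23S ribosomal RNA genes, and the mitochondrial genome at 129919 to 129963. Of the 177 words of 24 bases in the window, 22 occurred more than once in the genome, up to 4 times. How reads with several matches were placed is not given in the sources used here, and the part of organelle reads in this count was not tested.

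AT3G57480 encodes a zinc finger protein with C2H2 and AN1-like domains, and its window overlaps the 3′ untranslated region of the gene, on the minus strand at chr3:21277270-21279404. Few offspring had the signal, although almost every father did. The epiHybrids had a lowest count of 4.18, a median of 30.7 and a highest of 3732, the epiRILs 21.1, 3547 and 4856, and msCol12 and msCol16 2.81 and 2.93. The 2 msCol libraries held 5 raw counts together, and the epiRIL median was 1242 times their pooled level (95% counting interval 532 to 3826). The epiHybrid was below its epiRIL in 34 of 36 families, and the exceptions were 12 and 568.

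The epiHybrids at AT3G57480 did not form 1 cluster. In 28 of them the peak was below 10% of the median epiRIL peak. The other 8 were 12 with 3732, 568 with 2908, 503 with 1558, 424 with 1510, 219 with 1017, 275 with 948, 330 with 786 and 266 with 576. Of these, 7 were also among the 8 epiHybrids above 60% at the MS1 windows. The exceptions were 330, which was not above 60%, and 467, which was, with a count of 111 here. Over the 36 epiHybrids the AT3G57480 count and the level at the MS1 windows had r = 0.717 and rho = 0.524, and r = 0.621 and rho = 0.435 without families 12 and 568. Both values come from the same library, and the part of what set one in the other was not tested.

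The epiHybrids averaged 398 ± 836 at AT3G57480, and their fathers 3218 ± 1177 (SD, n = 36 each). Without families 12 and 568 the epiHybrids averaged 226 ± 428 and the fathers 3358 ± 1049 (SD, n = 34 each). EpiHybrid 462 had 4.18, against 21.1 in epiRIL 462, the lowest of the fathers. EpiHybrid 469 had 5.89, against 919 in its father, and epiHybrid 368 had 4.86, against 1049. The fathers of families 568 and 12, with 655 and 1003, were also low. Father and offspring had r = 0.0577 and rho = 0.0651 over the 36 families, and r = 0.256 and rho = 0.233 without families 12 and 568. The epiHybrids had a median position of 0.00818, with quartiles of 0.00281 and 0.0758, and 30 of 36 lay below 0.25. The ratio of means to the mid-parent value was 0.247, and 0.135 without families 12 and 568.

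The peak spanned chr3:21277151-21277600, 450 bp, with its highest step 50 bp into the window at 404 in the epiHybrids, 3252 in the epiRILs and 2.87 in msCol. Outside the peak no step within 3 kb exceeded 3.09 in the epiHybrids, 16.7 in the epiRILs or 2.40 in msCol. The windows most like the peak over the epiRILs were both in AT3G08935 (r = 0.977 and 0.973), the noncoding RNA gene that holds the inverted copy shown above. The copy matches 66 bases of the window at 87.9%, and 2 further inverted copies lie next to it, at chr3:21267847-21267908 and chr3:21267083-21267199, with 92.2% over 64 bp and 89.2% over 120 bp. At chr3:21267847-21267908 the epiHybrid median was 1.73, the epiRIL median 5.30 and the msCol mean 0.468, all low. At chr3:21267083-21267199 these were 48.6, 34.0 and 77.7, so that copy did not show the pattern of the peak.

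AT3G08935 followed the pattern of AT3G57480 at a lower level. Its 2 windows together had a lowest count of 21.96, a median of 59.3 and a highest of 584 in the epiHybrids, 14.4, 654 and 1085 in the epiRILs, and 11.7 and 35.6 in msCol12 and msCol16. The correlation between AT3G08935 and AT3G57480 was 0.984 over the epiRILs and 0.915 over the epiHybrids (Pearson, log2 scale, n = 36 each). In the window, 172 of 177 words of 24 bases occurred once in the genome. Reads of other lengths and reads placed with a mismatch were not examined, and the part of reads that could come from either place was not tested.

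AT3G44950 encodes a glycine-rich protein, and its window lies 45 bp from the gene on its 5′ side, with no other annotated gene within 3 kb. This peak was that of the mother. The epiHybrids had a lowest count of 1.02, a median of 594 and a highest of 1785, the epiRILs 0, 1.57 and 494, and msCol12 and msCol16 1052 and 1099. The epiRIL mean was 5.11% of the msCol mean. EpiHybrids were above their own epiRIL in 32 of 36 families and above the msCol mean in 7, the highest being 79 with 1785 and 426 with 1296.

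The epiRILs formed 2 clusters at AT3G44950. In 27 of them the count was 6.50 or lower, with 15 at 0, and in 9 it lay between 61.0 and 494. The 9 were 574 with 61.0, 266 with 111, 334 with 129, 275 with 158, 219 with 165, 330 with 208, 568 with 309, 503 with 313 and 12 with 494. These are also the 9 epiRILs with the highest level at the 9 windows around MS1 that carry counts in msCol, where they had 2.66% to 27.5% of the msCol level and no other epiRIL exceeded 0.24%. Within these 9, the AT3G44950 count and that level had r = 0.708 and rho = 0.717, or r = 0.550 and rho = 0.500 in the 7 without families 12 and 568, and within the other 27 r = 0.221 and rho = 0.151. Whether these counts arose in the plants or in the libraries cannot be told apart here.

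Within these 9 families father and offspring had r = -0.61 and rho = -0.82, and r = -0.63 without the 2 fathers farthest from the median, while r was -0.037 within the other 27. Without families 12 and 568 the r within the remaining 7 was -0.50 and the rho -0.86. The epiHybrids with the lowest counts were 568 with 1.02, 330 with 4.18, 424 with 18.8, 12 with 48.1 and 310 with 66.8. Of these, 568, 330, 424 and 12 were among the 8 with the AT3G57480 signal, and over the 36 epiHybrids the 2 loci had r = -0.59 and rho = -0.30, or r = -0.46 and rho = -0.17 without families 12 and 568.

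In the 33 families whose parents differed at least 4-fold at AT3G44950 the median position was 0.43, close to the midpoint, but with quartiles of 0.064 and 0.63 and a range of -0.66 to 1.23. Over the 4 non-overlapping windows of the peak, 800 bp from the window start on, the median was 0.53. The epiHybrids averaged 647 ± 437 (SD, n = 36) against a mid-parent value of 565, a ratio of means of 1.14, and 1.23 without families 12 and 568, and 19 of 36 were above the mid-parent value. The mean difference was 81.7 ± 77.4 (SE, without the error of the msCol mean), small beside the spread between families.

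The AT3G44950 peak was the widest, 900 bp over 15 steps at chr3:16420701-16421600, and it covered the whole gene. Its flank also carried small RNA. The step 2600 bp before the window had means of 262 in the epiHybrids, 245 in the epiRILs and 156 in msCol, and the step 1250 bp before it 181, 184 and 152. Both steps had counts in all 3 groups. The peak itself had 2 humps. The first had its crest at the window itself, with 647 in the epiHybrids, 54.9 in the epiRILs and 1075 in msCol. The second lay 450 bp on, around and past the 3′ end of the gene, with 102, 8.57 and 334. Between them the step 250 bp on had 14.2, 1.85 and 31.5. The second hump was lower relative to the first in the offspring: its median was 15.5% of the first in the 31 epiHybrids with at least 100 counts (range 3.74% to 25.8%) and 14.1% in 8 such epiRILs, against 28.9% and 33.4% in the msCol libraries, above all of the epiHybrids.

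The window of AT3G44950 had no copy elsewhere, and all 177 words of 24 bases in it occurred once. The wider peak had 24 partial copies at 80% identity or more over at least 50 bp, of which the longest, chr3:15506955-15507322, matched 87.3% over 379 bp of the part that holds the gene. That copy had medians of 43.7 in the epiHybrids and 35.6 in the epiRILs and an msCol mean of 47.6, so it did not show the parental difference. The windows most like the peak over the epiRILs were in AT5G19170 (r = 0.949) and at 2 intergenic places, chr2:13702401-13702600 (r = 0.946) and chr5:8490201-8490400 (r = 0.927). In these 3 windows the epiHybrid medians were 124, 195 and 523, the epiRIL medians 0, 0 and 1.43, and the msCol means 1206, 655 and 998. Those on chromosome 5 are among the 9 windows around MS1 described above, so their likeness repeats that relation.

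**Figure D2:**
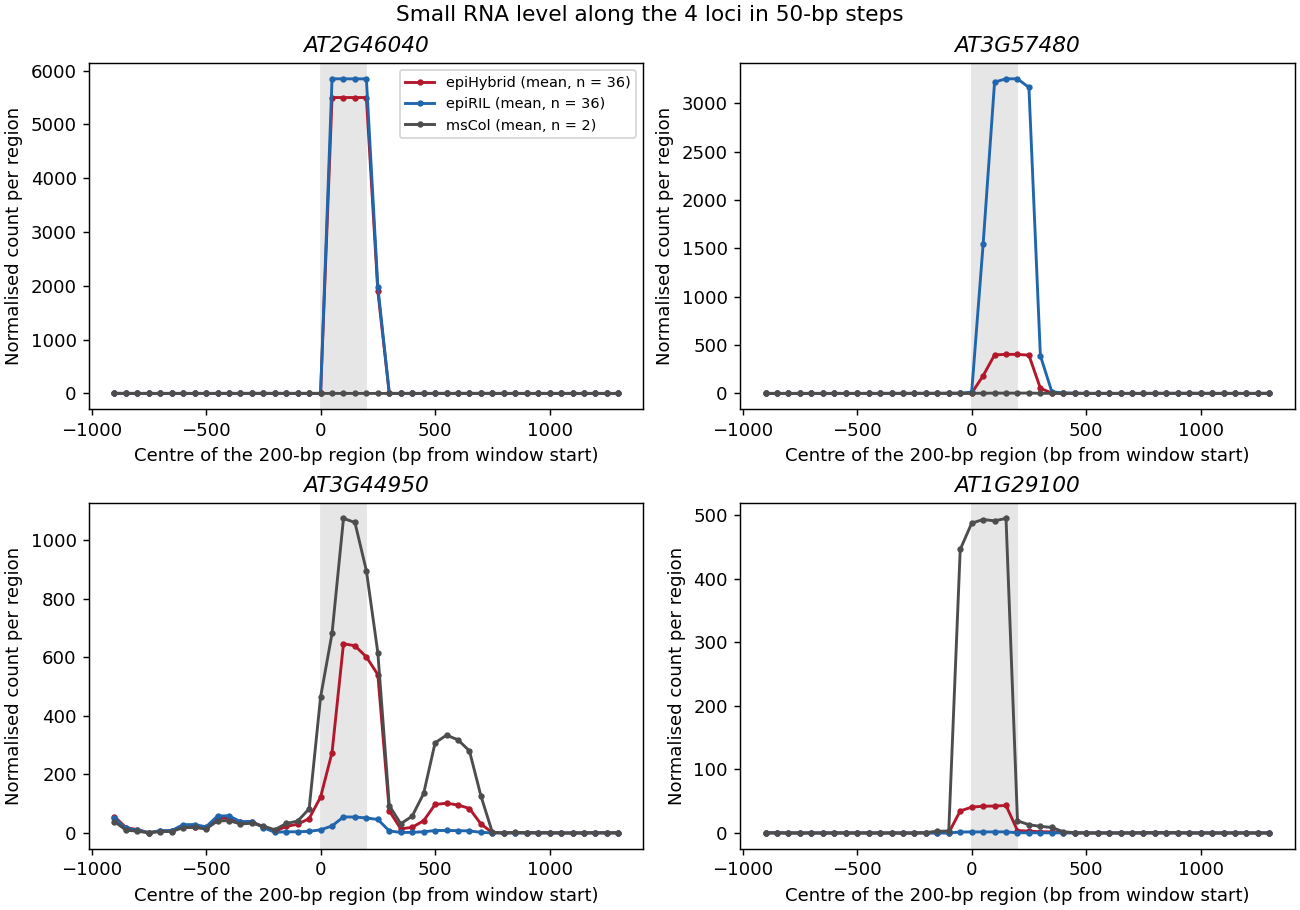
Mean normalised count per 200-bp region at 50-bp steps, against the centre of the region in bp from the start of the window, for epiHybrids, epiRILs and msCol at each locus, with the window shaded. The AT3G44950 peak has 2 humps, with 1075 and 334 in msCol, and each of the other 3 is a single block, 400 to 450 bp wide in all with its lower edge steps included.

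AT1G29100 encodes a protein of the heavy metal transport and detoxification superfamily, and its window reaches into the 3′ untranslated region of the longer transcript, on the plus strand at chr1:10168717-10169916. This peak too was that of the mother, and the offspring had far less of it than the mean of both parents. The epiHybrids had a lowest count of 0, a median of 22.8 and a highest of 252, the epiRILs 0, 0 and 15.6, and msCol12 and msCol16 535 and 448. The epiHybrid median was 4.63% of the msCol mean, and the epiRIL mean was 0.351% of it. No count was found in 1 of 36 epiHybrids and 19 of 36 epiRILs.

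A few families stood above the rest at AT1G29100. EpiHybrid 469 had 252, 79 had 219, 340 had 213 and 454 had 131, while the fifth, 539, had 60.9 and all others less. EpiRILs 469 and 79 had 0, 340 had 1.06 and 454 had 6.89. None of these 4 was among the 8 epiHybrids above 60% at the MS1 windows, and over the 36 epiHybrids AT1G29100 and that level had r = -0.68 and rho = -0.50, or r = -0.49 and rho = -0.40 without families 12 and 568. EpiHybrid 568 had 0, against 15.6 in its father, the highest of the epiRILs.

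The epiHybrids averaged 42.4 ± 61.7 (SD, n = 36) at AT1G29100 against a mid-parent value of 246, a difference of -204 ± 10.3 (SE) and a ratio of means of 0.172. This SE leaves out the error of the msCol mean, which all families share. The difference was -182 with msCol16 as the only msCol library and -226 with msCol12, a wider range than the SE. The count was below the mid-parent value in 35 of 36 families, and the exception was 469 at 1.03 times. As at AT2G46040, no p is given, because the parental counts in the mid-parent value selected the locus. On the scale with 0 at msCol and 1 at the epiRIL, the median was 0.95, with quartiles of 0.93 and 0.98 and 0.49 as the lowest value. Taken on the log2(count + 1) scale, where the mid-parent value is lower, the mean difference was -0.47, so the shortfall is one from linear additivity. Father and offspring had r = -0.24 and rho = -0.11, and r = 0.10 without families 12 and 568.

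The AT1G29100 peak spanned 400 bp, chr1:10169651-10170050, in both msCol libraries and in each of the 19 epiHybrids with enough counts. Its steps differed little, with msCol means from 446 to 495 and epiHybrid means from 34.6 to 43.3, so most reads crossed the point between the 2 capital bases shown above, within the last exon. The step past the peak had 3.79 in the epiHybrids, 0.232 in the epiRILs and 19.1 in msCol. No copy at 80% identity over 50 bp was found for this window, and 1 of its 177 words of 24 bases occurred more than once, in 3 places. The windows most like it over the epiRILs were on chromosome 5, at 8992401 (r = 0.863), at 9270401 (r = 0.820) and in AT5G24750 (r = 0.813), with epiRIL medians of 0 at each, so these values rest on few counts. Without families 12 and 568 the first 2 had r = 0.789 and 0.725. The third was then on chromosome 4, at 2804001 (r = 0.721), in place of AT5G24750. The AT5G24750 window is also among the 9 around MS1.

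**Figure D3:**
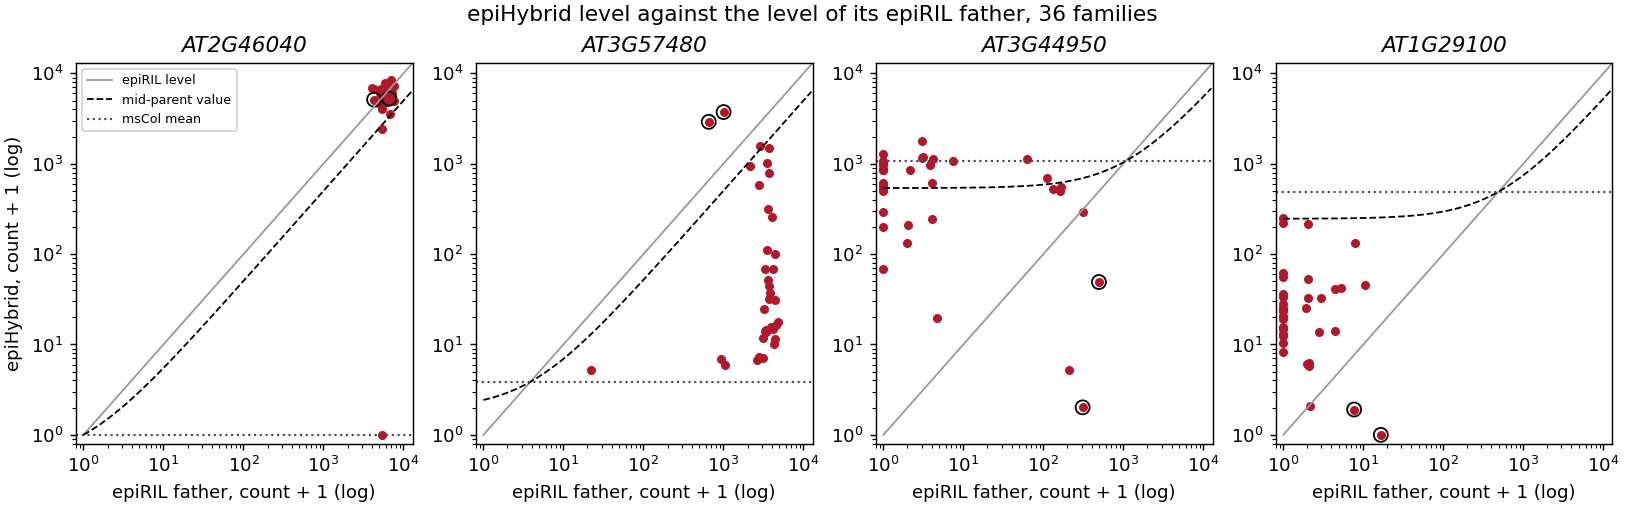
Normalised count plus 1 of the epiHybrid (vertical, log axis) against that of its epiRIL father (horizontal, log axis) for 36 families at each locus, with lines for the epiRIL level, the mid-parent value and the msCol mean, and circles around families 12 and 568. Offspring lie above the mid-parent line in 34 families at AT2G46040 and below it in 33 at AT3G57480 and 35 at AT1G29100, and on both sides at AT3G44950.

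Presence was then counted in every library. A library was counted as holding a peak when the count over the peak reached 10% of the higher parent. For this count the peak was taken as the non-overlapping 200-bp windows from the start of the first window on. These were 1 window at AT2G46040 and AT1G29100, 2 at AT3G57480 and 4 at AT3G44950, so less than the extents given above. A read across the border of neighbouring windows counts in both. By this count AT2G46040 was held by 35 of 36 epiHybrids, 36 of 36 epiRILs and 0 of 2 msCol libraries, and AT3G57480 by 8, 35 and 0. AT3G44950 was held by 31 epiHybrids, 7 epiRILs and both msCol libraries, and AT1G29100 by 7, 0 and 2. The line fell in a gap at AT2G46040, between 0 and 2429. At AT3G57480 it fell between 361 and 648 in the epiHybrids, of which 10 reached 5% of the higher parent and 6 reached 25%. At AT3G44950 the values on either side were 118 and 188 in the epiHybrids and 159 and 178 in the epiRILs. At AT1G29100 they were 44.9 and 52.5 in the epiHybrids.

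By family, AT3G57480 was held by both father and offspring in 8 families, by the father only in 27 and by neither in 1. AT3G44950 was held by both in 4, by the epiHybrid only in 27, by the epiRIL only in 3 and by neither in 2. The epiRILs that held AT3G44950 and the epiHybrids that held AT3G57480 shared 6 families, 6 of 7 and 6 of 8. Without families 12 and 568, 6 of 34 epiHybrids held AT3G57480 and 5 of 34 epiRILs held AT3G44950. Without the 8 families above 60% at the MS1 windows, 1 of 28 epiHybrids held AT3G57480 and 2 of 28 epiRILs held AT3G44950. Among the epiHybrids, 19 held AT2G46040 and AT3G44950 alone, 7 held these and AT1G29100, 4 held these and AT3G57480, 4 held AT2G46040 and AT3G57480, 1 held AT2G46040 alone and 1, number 211, AT3G44950 alone. At this line no epiHybrid held AT3G57480 and AT1G29100 together. However, epiHybrids 219, 266 and 330, which held AT3G57480, had 6.43%, 8.20% and 9.15% of the higher parent at AT1G29100. With 5% as the line they would hold both. The other epiHybrids that held AT3G57480 had at most 2.66% there.

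**Figure D4:**
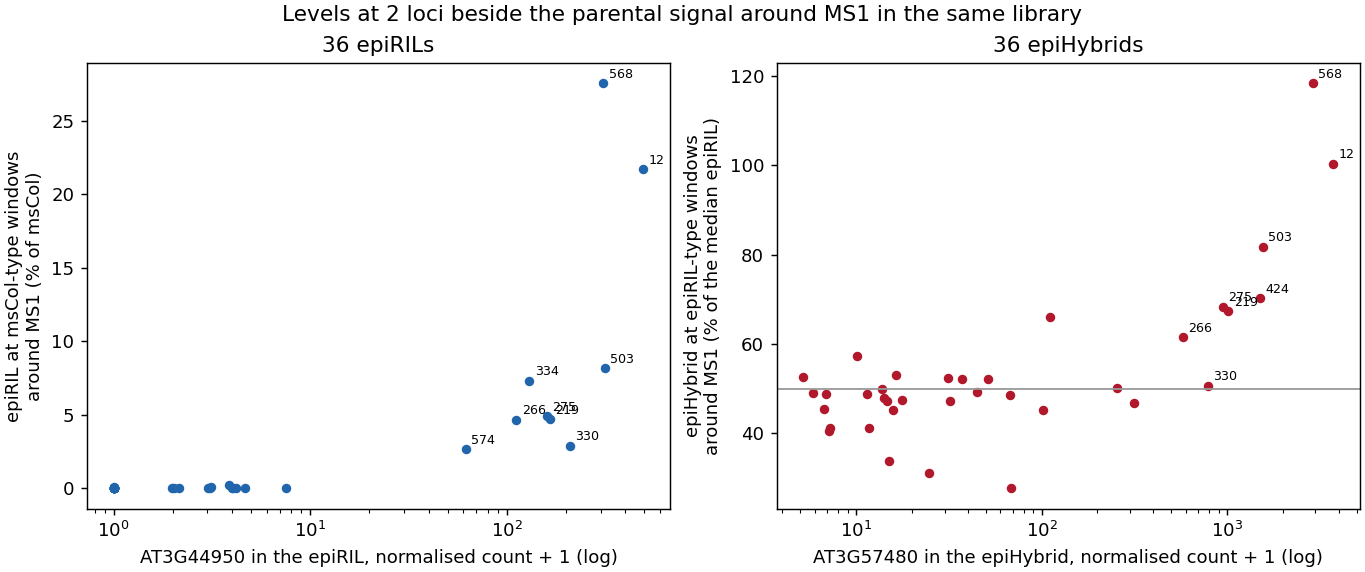
Left, level of the 36 epiRILs at the 9 windows around MS1 that carry counts in msCol (percent of msCol) against AT3G44950 in the same library (count plus 1, log axis). Right, level of the 36 epiHybrids at the 333 windows that carry counts in the epiRILs (percent of the median epiRIL) against AT3G57480 (count plus 1, log axis). The 9 epiRILs with AT3G44950 counts have 2.66% to 27.5% and all others at most 0.24%, and the 8 epiHybrids highest in AT3G57480 include 7 of the 8 above 60%.

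The 3 contexts were counted from the same libraries, so near-equal levels in shared regions are no independent check. They gave levels within 1.91% of each other in shared regions with at least 1000 raw counts. Only regions with enough cytosines of a context are in its file, so the AT2G46040 peak had 1 CHG and no CG region beside 5 CHH regions, AT3G57480 1 and 3 beside 6, AT3G44950 7 and 7 beside 15, and AT1G29100 0 and 3 beside 5. Counts are of reads of every length, and the 24-nt class was not separated here.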

How the data were processed

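The authors aligned small RNA reads of each line to TAIR10 with ShortStack at default parameters and deposited raw counts of reads of all lengths per 200-bp region at 50-bp steps, in separate CG, CHG and CHH files. A read is counted in each region it overlaps. The ShortStack version, the placement of reads with several matches and the use of molecular identifiers are not given in the sources used here, so intervals cover counting error only. Every column of the files was matched to a sample, and groups and families came from the labels. Chromosome lengths equalled those of the reference used for annotation and sequence (RefSeq, TAIR10.1).

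Counts were divided by TMM effective library sizes. The 174612 non-overlapping windows whose mean count per library was 2 or more were tested with Benjamini-Hochberg adjustment at 0.05: epiHybrids against epiRILs with the family as a block and epiRILs against msCol in edgeR 4.0.16 (quasi-likelihood), and epiHybrids against the linear mid-parent value in limma 3.58.1, on the 36 differences divided by the square root of the window mean. The family pairs father and offspring. DESeq2 1.42.0 was an alternative, in R 4.3.3. The fits were tested on simulated data. On these the mid-parent test, which leaves out the error of the msCol mean, called too many unchanged windows. A fit on all 74 libraries that includes this error, but has no family term, was then added, after the data had been seen. Levels, extents (steps at or above 10% of the highest, bridging gaps of up to 200 bp) and correlations on log2(count + 1) were obtained with SciPy 1.17.1, pandas 2.3.3 and NumPy 2.4.6 under Python 3.11.15. Copies were sought with BLAST 2.17.0, and matplotlib 3.10.9 drew the plots. Windows around MS1 were those with a median epiRIL count of at least 10 and msCol at 5% of it or less, or an msCol mean of at least 50 and the median epiRIL at 1% of it or less. Fathers were split into clusters at a gap of over 2 on the log2 scale with at least 6 on each side. The members, gene lists and thresholds were chosen with earlier results of these data known. Genes named are the 4 members, annotated genes within 3 kb, and those in the 3 windows most like each peak over the epiRILs. AT3G08935 was chosen after its values were seen, as a copy and a window of the highest likeness. Alternatives covered scaling, the minimum count, the tool, the block, thresholds, contexts, each msCol library, families 12 and 568, and, added later, the 8 families above 60% around MS1.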

Additional observations from a re-analysis of the deposited data

How the results depend on the processing

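Of 168 values recomputed under an alternative, 143 stayed within a band set for each kind of value. For positions the band was the SD between families, and for r between father and offspring its 95% interval, both wide. Some values could not change, since at AT2G46040 and AT1G29100 the peak was counted in 1 window, the window itself, and msCol was 0 at AT2G46040. The number is therefore no measure of how firm the results are. The windows called between epiHybrids and epiRILs numbered 13455 with the family as a block, 7661 without the replicate block and 8295 in DESeq2, also without it. Without a minimum mean, windows called between epiRILs and msCol numbered 1713 against 3350, and against the mid-parent value 158517 against 82275. In a fit on all 74 libraries with the error of the msCol mean in the model and without the family pairing, the mid-parent count was 3754. Leaving out 1 msCol library gave 1538 to 1789 windows between epiRILs and msCol and 93766 to 96501 against the mid-parent value. Library size scaling moved all log2 differences by 0.053 between epiHybrids and epiRILs and by 0.14 between epiRILs and msCol, and the share of calls that were higher became 67.1%, 66.1% and 71.4%, against 49.5% for epiHybrid against epiRIL, 46.5% against the mid-parent value and 55.4% for epiRIL against msCol with TMM. Median-of-ratios factors gave 46.1%, 39.3% and 46.0%.

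At the loci, AT1G29100 was -0.47 from the mid-parent value on the log2(count + 1) scale, against -204 counts on the linear scale. Median positions ranged from 0.94 to 0.97 at AT2G46040, 0.0032 to 0.0092 at AT3G57480, 0.32 to 0.53 at AT3G44950 and 0.95 to 0.96 at AT1G29100. With 5% of the higher parent as the line, 15 epiHybrids held AT1G29100, and with 25% 4 did, while 3 epiRILs held AT3G44950 at 25%. Without the 8 families above 60% around MS1, an alternative chosen after seeing the data, 1 epiHybrid held AT3G57480 and 2 epiRILs held AT3G44950. In that setting r between father and offspring was 0.23 at AT1G29100 and 0.37 at AT3G57480. Without families 12 and 568 it was 0.10 at AT1G29100 and 0.26 at AT3G57480, against -0.24 and 0.058 with all families. Leaving out 1 msCol library changed the epiHybrids that held AT1G29100 to between 6 and 8. Peak widths were 400 bp for AT3G57480 at 25% of the maximum, and for AT3G44950 950 bp at 5% and 850 bp at 25%. In CHG regions they were 200 bp for AT2G46040 and AT3G57480 and 500 bp for AT3G44950, and in CG regions 300 bp for AT3G57480 and AT1G29100 and 500 bp for AT3G44950, since fewer regions are listed there. The whole AT3G44950 peak had 24 copies, against 0 for its window.

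With 2 msCol libraries and 1 library per line, the spread within a line is unknown. The epiHybrid against epiRIL test and the main mid-parent test rest on how the difference within a family varied between families. The epiRIL against msCol test rests on the spread between libraries within the 3 groups. With no count in msCol at AT2G46040, its fold is only a lower bound.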
